A study of Homo sapiens with 6 samples.

Results

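Some acetylated regions of ME-1 chromatin held several RUNX1 sites after AI-10-49 treatment, and these multi-site regions are described here. A region was taken when it was listed as an H3K27ac peak in DMSO, was under 5000 bp wide and overlapped at least 2 peaks of the RUNX1 list of AI-10-49. The regions were thus selected on called positions and widths, and the rule took 587 of 67087 H3K27ac regions (0.875%). All libraries came from ME-1, a human acute myeloid leukemia line (established, 1 line only) that carries inv(16). Its cells were kept for 6 h in DMSO, the vehicle, or in 1 µM AI-10-49 before ChIP against RUNX1 or H3K27ac. Each antibody and condition had 1 library with a peak list, 4 lists in all, and 2 input libraries had no list. Without replicates, differences between conditions carry counting intervals here and no p-value.

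RUNX1 is a DNA-binding transcription factor of blood cell development that works as a heterodimer with CBFβ. The inversion in these cells fuses CBFB to MYH11, and the fusion protein CBFβ-SMMHC binds RUNX1 and disturbs its work. The compound AI-10-49 blocks the contact between CBFβ-SMMHC and RUNX1. H3K27ac is the acetylation of histone H3 at lysine 27, which marks nucleosomes of active promoters and enhancers. Enhancers commonly carry several transcription factor sites within a short stretch, separated by or flanked by acetylated nucleosomes.

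The height of a peak is given in fragments/M, the number of ChIP fragments over its summit, its highest point, per M reads of the library (M for mega). Fragments and reads were recovered from the authors' fold enrichment and −log10 p. The recovered libraries held 33.8 M reads (RUNX1 DMSO), 31.5 M (RUNX1 AI-10-49), 35.7 M (H3K27ac DMSO) and 37.0 M (H3K27ac AI-10-49). Fragments were longer in AI-10-49 by 1.13 times for RUNX1 and 1.09 times for H3K27ac, which by itself raises the number over a summit. Intervals are exact at 95%. On fragment numbers (Poisson) they cover counting error only, and on shares (Clopper-Pearson) they cover the sampling of sites or regions within these libraries.

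The choice used the positions and widths of the DMSO H3K27ac list and the positions of the AI-10-49 RUNX1 list, so the numbers of sites and the widths below are a description of the choice. Of the 587 regions, 553 held 2 sites, 29 held 3 and 5 held 4. They were 398 to 4995 bp wide, with a median of 3032 bp. The median width of the 7893 regions under 5000 bp with 1 site was 1608 bp, and it was 466 bp for the 57523 with 0 sites. Wider regions have more room for sites, and multi-site regions made up 0.0308% of all regions under 1000 bp, 3.20% of those from 2000 to 3000 bp and 14.8% of those from 4000 to 5000 bp. At the width limit, the widest regions inside were chr4:10093885-10098879 in 4p16.1 (4995 bp) and chr2:54797303-54802286 in 2p16.2 (4984 bp), each with 2 sites. The narrowest outside were chr11:65624063-65629064 in 11q13.1 (5002 bp, 2 sites) and chr12:122063892-122068910 in 12q24.31 (5019 bp, 3 sites). All positions are 1-based in hg19.

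The regions lay on all chromosomes but Y, from 9 on chromosome 21 to 48 on chromosome 19. They fell in 328 of 798 cytobands. The band with most was 19p13.3 with 13 regions, followed by 16p11.2 with 8. Per 100 H3K27ac regions under 5000 bp, chromosome 19 had 1.64 multi-site regions and chromosome 3 had 0.410, against 0.889 in the whole list. Neighbouring multi-site regions were a median of 2129 kb apart, and 14 of 564 neighbouring pairs were under 10 kb apart.

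The 587 regions held 1211 distinct RUNX1 sites, 11.7% of the 10319 sites of the AI-10-49 list, and 2 of these sites touched 2 regions. Counted per region there were 1213 sites, of which 1140 (94.0%) had their summit inside the region. In regions with 1 site the summit was inside in 70.2% of cases, while in multi-site regions few sites only touched the edge. Regions with 1 site were narrower (median 1608 bp against 3032 bp), and the part of width in this difference was not tested. In AI-10-49 the sites had 0.381 to 7.61 fragments/M with a median of 1.08, and sites in regions with 1 site had a median of 1.05. The sites of multi-site regions were thus close in height to the rest of the list.

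Sites within a region were unequal. The highest site had a median of 1.46 fragments/M and the next one 0.888. In regions with 2 sites the higher site had a median of 1.53 times the fragments of the lower one, with quartiles of 1.22 and 2.0. The higher site was at least 2 times the lower in 152 of 553 (27.5%) and under 1.5 times in 270 (48.8%). Since one of the pair is always the higher, some inequality follows from counting error alone.

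**Figure D1:**
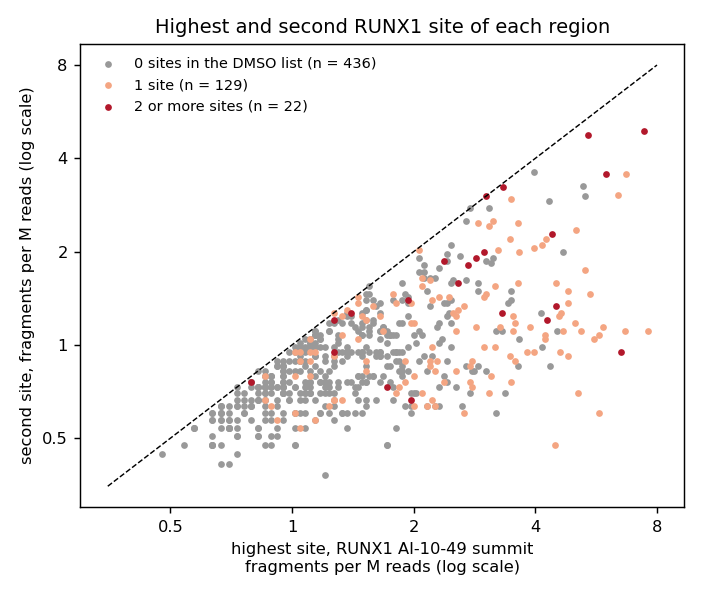
Summit fragments per M reads of the highest RUNX1 site (x axis) and the second site (y axis) of each of the 587 regions in AI-10-49, both on log scales, coloured by how many sites of the region overlapped a DMSO site; the dashed line marks equal heights. Regions with a site of the DMSO list lie further to the right, with a median of 2.57 for the highest site against 1.24 where none was listed.

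Neighbouring RUNX1 summits were a median of 781 bp apart over 626 pairs, with quartiles of 520 and 1229 bp. The range ran from 116 to 3717 bp. Of the pairs, 135 (21.6%) were under 500 bp apart, 268 (42.8%) were 500 to under 1000 bp, 186 (29.7%) were 1000 to under 2000 bp and 37 (5.91%) were further. Only 19 pairs were under 300 bp apart, and in classes of 100 bp the fullest was 500 to 600 bp with 76 pairs. The lists give 1 summit per peak and separate intervals, and the shortest gap between the edges of neighbouring peaks was 45 bp, so closer binding events would appear as 1 site. Measured between edges, the median gap was 396 bp.

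Spacing grew with the room in the region. The median distance between summits was 555 bp in regions under 1000 bp, 661 bp from 1000 to 2000 bp, 671 bp from 2000 to 3000 bp, 868 bp from 3000 to 4000 bp and 1086.5 bp from 4000 to 5000 bp. Between 1000 and 3000 bp of width it hardly moved. The outermost sites spanned a median of 837 bp, or 30.9% of the region. In the 5 regions with 4 sites the median distance was 438 bp.

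**Figure D2:**
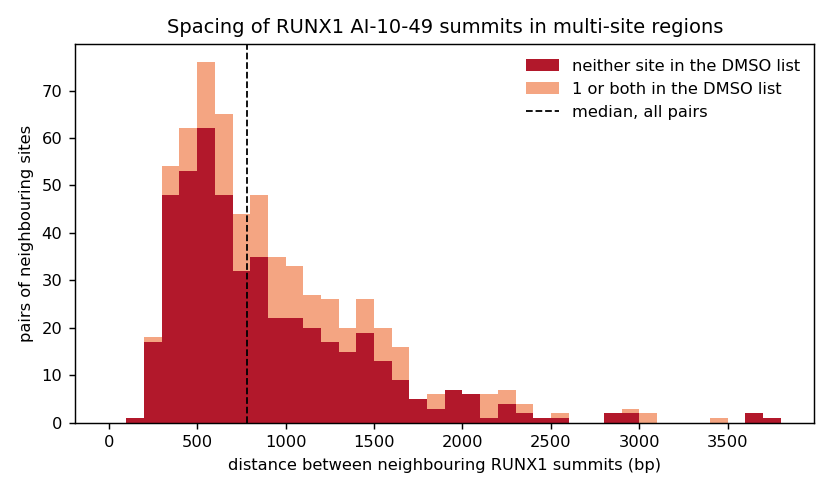
Numbers of neighbouring RUNX1 AI-10-49 site pairs (y axis) by the distance between their summits in bp (x axis, classes of 100 bp), for 626 pairs in 587 regions. Pairs with 1 or both sites in the DMSO list are the lighter part of each bar; the dashed line is the median of 781 bp, and most pairs lie between 300 and 1000 bp.

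The shortest distances were 116 bp in 4q28.2 (chr4:128981448-128983713), 218 bp in 9q22.32 (chr9:99179146-99183841) and 225 bp in 7q22.1 (chr7:100201368-100202866). All sites of these 3 regions were low, with 15 to 25 summit fragments in AI-10-49. In the 7q22.1 region both sites overlapped 1 peak of the DMSO list, with 22 fragments. The longest were 3717 bp in 15q14 (chr15:34625516-34630277), 3679 bp in 19q13.32 (chr19:47287332-47291922) and 3632 bp in 20q11.22 (chr20:32274395-32279246). No site of these last 3 regions was in the DMSO list.

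The RUNX1 sites stood beside the H3K27ac summit rather than on it. The nearest RUNX1 summit was a median of 247 bp from the H3K27ac summit of DMSO, with quartiles of 175 and 344.5 bp. It was 100 to under 500 bp away in 484 of 587 regions (82.5%) and under 100 bp away in 55 (9.37%). In regions with 1 site the corresponding shares were 84.9% and 4.65%, and the median was 276 bp, so this offset was shared with them. The H3K27ac summit lay between the outermost RUNX1 summits in 442 of 587 regions (75.3%, 71.6 to 78.7), although these summits enclosed a median of only 30.9% of the width. The share was 74.3% where the sites spanned under 1000 bp and 76.9% where they spanned more. After AI-10-49 the highest H3K27ac summit lay between them in 429 of 585 regions (73.3%).

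How many of these sites were already listed in DMSO was asked with the RUNX1 DMSO list, which the choice did not use. That list held only 1701 peaks against 10319 in AI-10-49, which limits how large the share over all AI-10-49 sites could be. Of the 1211 sites, 174 (14.4%, 12.4 to 16.5) overlapped a DMSO site. In the other direction, all 170 DMSO sites that overlapped the regions also overlapped an AI-10-49 site. Over all 10319 AI-10-49 sites the share was 14.9%, and in regions with 1 site it was 14.9% (14.1 to 15.8). The share in multi-site regions was therefore near that of the whole list. For sites in no DMSO H3K27ac region it was 20.3% (17.9 to 22.9).

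Counted by region, 148 of 587 (25.2%, 21.7 to 28.9) overlapped a RUNX1 site of DMSO, against 1.98% of all H3K27ac regions under 5000 bp and 13.5% of those with 1 site. Most regions under 5000 bp, 57523 of 66003, had 0 AI-10-49 sites, and 0.158% of these overlapped a DMSO site. The contrast with 1.98% thus largely follows from the choice. With 2 sites or more, a region also has more chances to hold a DMSO site. No AI-10-49 site of the region was in the DMSO list in 436 regions, 1 was in 129, 2 were in 21 and 3 were in 1. These counts include DMSO sites that touched the AI-10-49 site but not the region. In 19 regions (3.24%) every site was listed in DMSO.

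The site listed in DMSO was usually the higher one, and such sites were also higher over the whole list. There the AI-10-49 median was 2.03 fragments/M for sites in both lists and 0.984 for sites not in the DMSO list. In the 121 regions with 2 sites of which 1 was in the DMSO list, that site had more AI-10-49 fragments in 104 (86.0%, 78.5 to 91.6). Sites not listed in DMSO lay a median of 977 bp from the nearest listed site of their region, with a range of 312 to 3757 bp. Pairs with neither site in DMSO were a median of 715 bp apart and pairs with both 1214 bp (21 pairs). A site absent from the DMSO list may still have bound RUNX1 below the calling threshold. In AI-10-49 the 1037 unlisted sites had a median of 0.984 fragments/M, and 600 of them (57.9%) reached the median of the DMSO list, 0.918.

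At the 174 sites in both lists RUNX1 was higher in AI-10-49. Their DMSO heights ran from 0.414 to 4.0 fragments/M (median 1.04), and their AI-10-49 heights from 0.666 to 7.61 (median 2.35). The ranges overlapped. The median ratio was 2.14, with quartiles of 1.53 and 3.13, and 132 of 174 (75.9%) were higher by at least 1.5 times, near the 75.7% of all sites in both lists. Lower values in AI-10-49 were found at 10 of the 174. The ratio at sites of regions with 1 site was 2.13. All these sites had to be called in both lists, and the AI-10-49 call was part of the choice. The ratios therefore do not describe sites missing from either list. After division by the ratio of fragment lengths, the median of 2.14 in multi-site regions was 1.89.

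**Figure D3:**
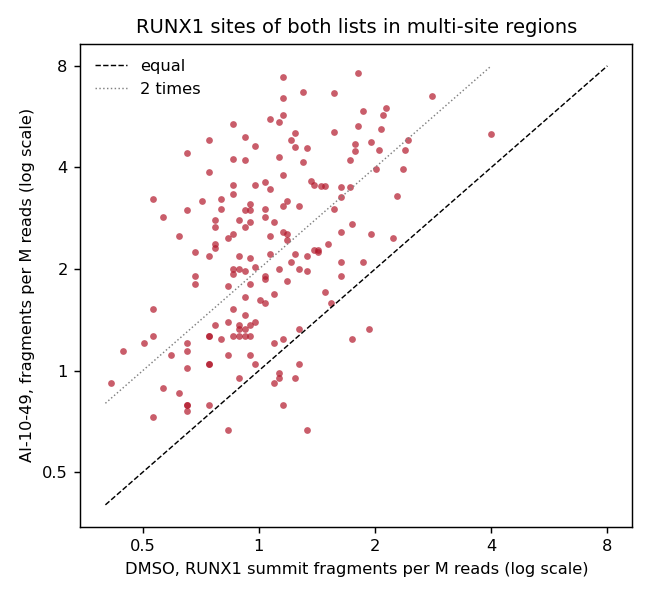
Summit fragments per M reads of RUNX1 in DMSO (x axis) and AI-10-49 (y axis), both on log scales, for the 174 sites of both lists in multi-site regions. The dashed line marks equal values and the dotted line a ratio of 2; most points lie above the dashed line and 10 lie below it.

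Single regions show these patterns. A gene named beside a band is general background on that band and does not place the region at the gene, since no hg19 annotation was used. The 10 regions named for the number of sites are given in order. The region chr9:130544754-130549265 in 9q34.11, the band of CDK9, a kinase of transcription elongation, held 4 sites. Its highest site had 1.04 (0.722 to 1.44) fragments/M in DMSO and 3.62 in AI-10-49. The other 3 were listed in AI-10-49 only, with 0.571, 1.59 and 0.571, and lay 2247 bp and more away from it. Its H3K27ac summit went from 4.17 (3.53 to 4.90) to 2.73 (2.22 to 3.32).

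The region chr19:47729456-47732317 in 19q13.32, the band of the apoptosis gene BBC3, held 4 sites within 2862 bp. From left to right they had 0.825, 1.46, 0.761 and 1.43 fragments/M in AI-10-49. One of them was listed in DMSO with 0.918 (0.624 to 1.303), and in AI-10-49 it had 1.46, 1.59 times as much. In chr20:304318-308862 (20p13) all 4 sites were absent from the DMSO list and had 0.984 to 1.49 in AI-10-49. In chr7:73506630-73509963 (7q11.23) 1 of 4 sites was in DMSO, and in chr9:99179146-99183841 (9q22.32) none was. The H3K27ac summit ratio of AI-10-49 over DMSO in these 5 regions was 0.452 to 0.780.

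Of regions with 3 sites, chr19:54712170-54715406 in 19q13.42 had the highest sum of site −log10 q. This band holds the leukocyte immunoglobulin-like receptor genes. Its outer sites were listed in DMSO with 1.15 (0.821 to 1.58) and 0.918 (0.624 to 1.303) fragments/M and had 7.42 and 4.92 in AI-10-49; the summit of the left one lay just outside the region. The middle site, 1812 bp from the left one and 871 bp from the right one, had 1.71 and was listed in AI-10-49 only. RUNX1 was thus called at the outer places in both conditions and at the middle one after treatment only. The H3K27ac summit of this region went from 5.60 (4.85 to 6.44) to 2.84 (2.32 to 3.44).

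The other regions named for 3 sites lay in 22q13.1, 10q24.32, 2q24.1 and 7p11.2. In chr10:104401954-104406804 the site on the right had 2.07 (1.62 to 2.62) fragments/M in DMSO and 5.20 in AI-10-49. The other 2 were not listed in DMSO. In chr2:157188677-157191794 (2q24.1, the band of the nuclear receptor gene NR4A2) one site had 0.799 (0.527 to 1.16) and 3.24, a ratio of 4.05. Its H3K27ac interval was wholly covered after AI-10-49, as was the 10q24.32 region. The region chr7:56173078-56176395 held 3 sites of similar height, 1.68, 1.78 and 2.32, none of them in the DMSO list.

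Among the 439 regions that overlapped no DMSO RUNX1 site, the 5 with the highest sum of site −log10 q were named. The foremost was chr7:104583107-104587221 in 7q22.3, with sites of 3.62 and 3.97 fragments/M in AI-10-49 that were 1423 bp apart. The region chr22:37638742-37641990 in 22q13.1, the band of RAC2, a small GTPase of blood cells, had 3 sites with 5.24, 3.27 and 1.02. The regions chr8:38792733-38797564 (8p11.22), chr11:117880728-117884437 (11q23.3) and chr2:54648193-54650875 (2p16.2) each had 2 sites, the higher ones with 4.31, 5.30 and 3.65. The higher site of each of these 5 regions was above the third quartile of the whole AI-10-49 list, 1.55, and had no DMSO call. Both traits largely follow from how these regions were named. Their H3K27ac ratios were 0.523 to 0.704 in 4 regions, and in the 11q23.3 region the H3K27ac summit went from 6.89 (6.06 to 7.81) to 7.11 (6.28 to 8.02).

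Among the 19 regions with every site in the DMSO list, chr1:156095784-156097091 in 1q22 came first. Its sites, 930 bp apart, had 0.859 (0.575 to 1.23) and 1.95 (1.51 to 2.49) fragments/M in DMSO and 5.39 and 4.76 in AI-10-49. The right site, with its summit just outside the region, was the higher one in DMSO. In AI-10-49 their intervals overlapped (4.61 to 6.27 and 4.03 to 5.58). In chr6:41904895-41909508 in 6p21.1, the band of the cyclin gene CCND3, the sites had 1.39 (1.02 to 1.85) and 2.13 (1.67 to 2.68) in DMSO and 3.55 and 6.0 in AI-10-49. The region chr10:121543395-121546964 (10q26.11) had 0.533 and 0.859 in DMSO and 3.24 and 3.33 in AI-10-49.

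Regions of 22q13.1 showed that neighbouring sites of 1 region could differ. In chr22:38028532-38031515 the left site had 1.24 (0.896 to 1.68) fragments/M in DMSO and 0.952 in AI-10-49, while the right one, 531 bp away, had 2.81 (2.28 to 3.44) and 6.50. In chr22:38070764-38073726 the sites were 2122 bp apart, and the left one had 1.39 and 2.28 while the right one had 0.651 (0.408 to 0.986) and 4.41. Ratios of 0.765 and 2.31 thus stood side by side in the former region, although the counting intervals of its left site overlapped (0.642 to 1.36 in AI-10-49), and 1.64 and 6.77 in the latter.

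**Figure D4:**
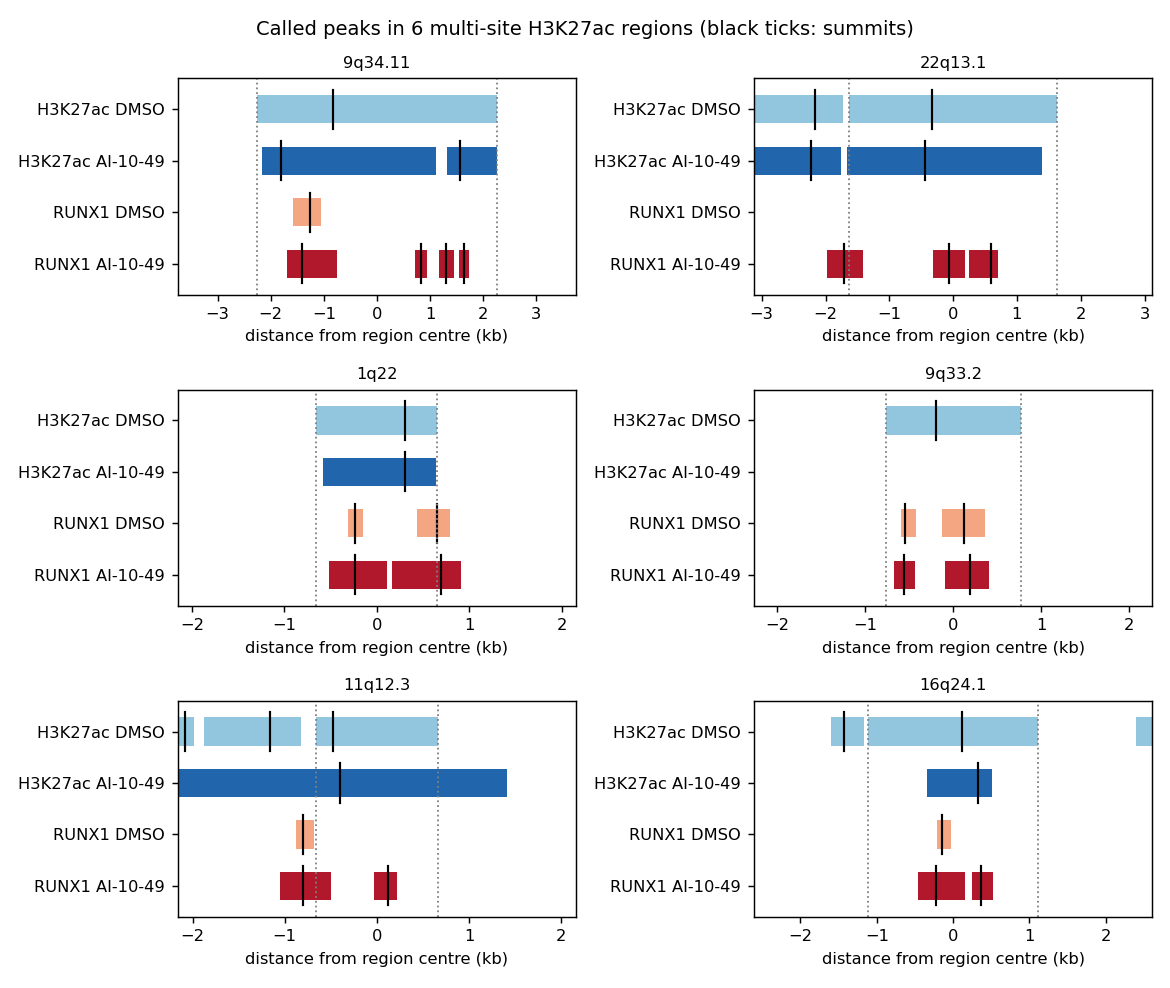
Called intervals of the 4 lists (rows, labelled at the left) by distance from the region centre in kb (x axis) in 6 named multi-site regions, with the region between dotted lines and summits as black ticks. The panels show, by band, the region with most sites, one with no DMSO RUNX1 site, one with every site in DMSO, one with no H3K27ac in AI-10-49, and those with the highest and the lowest H3K27ac ratio.

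Acetylation after treatment was read from the H3K27ac AI-10-49 list, which the choice did not use either. Of the 587 regions, 585 (99.7%, 98.8 to 99.96) overlapped an H3K27ac region of AI-10-49, against 70.5% of all regions under 5000 bp. The AI-10-49 list covered 92.1% of their bases, and a region was covered to a median of 94.9%. Regions with 1 site were covered to 86.3% of their bases and regions with 0 sites to 67.9%. The groups also differed in width. Under 1000 bp the share that overlapped an AI-10-49 region was 100% of the 14 multi-site regions, 81.9% with 1 site and 56.8% with 0. From 1000 to 2000 bp it was 98.2%, 98.7% and 96.3%, and from 2000 to 3000 bp 100%, 99.9% and 99.5%. Above 1000 bp this overlap was thus shared by regions with fewer sites. In 108 regions (18.4%) every base was covered, near the 16.2% of all regions under 5000 bp.

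Within classes of width, multi-site regions were covered somewhat more than regions with fewer sites. From 2000 to 3000 bp the covered share was 89.96% with 2 or more sites, 88.8% with 1 and 83.2% with 0. From 3000 to 4000 bp it was 94.1%, 90.03% and 87.1%, and from 4000 to 5000 bp 93.7%, 91.5% and 87.7%. Multi-site regions also had more H3K27ac in DMSO, where the median was 5.83 against 2.97 fragments/M with 1 site. Among regions with 200 to 300 summit fragments in DMSO the shares were 94.0%, 92.5% and 91.4%.

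Of the bases without coverage, most lay at the edges: 5.89% of all bases were at the ends (or in regions without any coverage) and 2.00% were in gaps between AI-10-49 regions. Of the 587 regions, 398 overlapped a single AI-10-49 region, in part or in full, and 187 (31.9%) overlapped 2 or more, against 12.4% of all regions under 5000 bp and 22.5% of those with 1 site. By width the order of these shares varied. Under 1000 bp it was 14.3% of the 14 multi-site regions and 3.39% of regions with 1 site, from 1000 to 2000 bp 25.7% and 24.0%, and from 2000 to 3000 bp 32.5% and 31.2%. From 3000 bp up the multi-site share was the lower one, with 31.7% and 43.7% to 4000 bp and 38.1% and 48.6% to 5000 bp. The 224 gaps inside 187 regions were 45 to 706 bp long, with a median of 122 bp.

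Some RUNX1 summits lay in such gaps. Of the 1140 RUNX1 summits inside the regions, 52 (4.56%) lay in a gap, and 51 of 224 gaps (22.8%) held at least 1. Gaps made up 2.00% of the bases, but RUNX1 summits were not spread evenly over the regions, so this is not an expected share. Another 35 summits lay at uncovered ends. In all, 1053 RUNX1 summits (92.4%, 90.7 to 93.8) lay in H3K27ac of AI-10-49, close to the covered share of bases. The H3K27ac summits of DMSO lay in it in 583 of 587 regions.

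H3K27ac summits were lower in AI-10-49. Over multi-site regions the median was 5.83 fragments/M for DMSO (0.981 to 10.5) and 3.596 in AI-10-49 (0.433 to 10.8), and these ranges overlapped. The median ratio was 0.692, with quartiles of 0.571 and 0.800. The ratio was under 1 in 542 of 585 regions (92.6%). It was under 1 in 85.0% of regions with 1 site and in 64.4% of all DMSO H3K27ac regions found in both lists. As a ratio of fold enrichments the median was 0.866, and after division by the ratio of fragment lengths it was 0.633. Values lower by at least 1.5 times were found in 258 of 585 (44.1%, 40.0 to 48.2), against 28.6% of all regions under 5000 bp. Values higher by that much were found in 3 regions (0.513%), against 13.1% of all regions under 5000 bp and 3.30% of those with 1 site.

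The lower summits were not particular to regions with several sites. Regions with 1 site had a median ratio of 0.710, and 41.8% of them (40.6 to 42.9) were lower by at least 1.5 times. Among regions of 100 to 200 summit fragments in DMSO the median ratio was 0.677 with 2 or more sites, 0.646 with 1 and 0.615 with 0. Among those of 200 to 300 it was 0.674, 0.709 and 0.691. Regions with 0 sites had a median of 0.893 over all, and most of them had under 100 fragments.

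**Figure D5:**
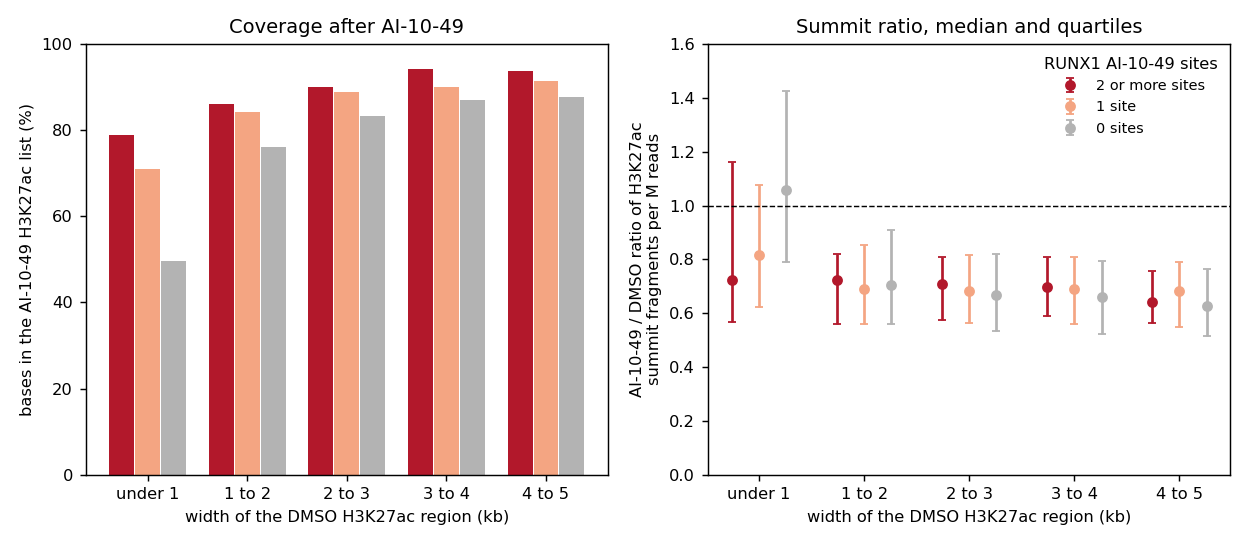
Left, percent of bases of DMSO H3K27ac regions in the AI-10-49 H3K27ac list (y axis) by width class in kb (x axis) and number of RUNX1 AI-10-49 sites. Right, ratio of H3K27ac fragments/M, AI-10-49 over DMSO, as median (points) and quartiles (bars) for regions in both lists; from 1 to 5 kb the medians of the 3 groups lie between 0.627 and 0.724.

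Regions whose RUNX1 was already listed in DMSO had lower H3K27ac ratios. In the 151 regions with at least 1 site in the DMSO list the median H3K27ac ratio was 0.638 (quartiles 0.533 and 0.734), and 85 of 149 (57.0%, 48.7 to 65.1) were lower by at least 1.5 times. In the 436 regions with none it was 0.714 (0.586 and 0.831), and 173 (39.7%, 35.1 to 44.4) were. These intervals cover the sampling of regions within 1 library per condition and not a repeat of the experiment. The order held in each class of H3K27ac summit fragments in DMSO, with 0.657 and 0.752 under 100 fragments, 0.642 and 0.703 from 100 to 200, 0.624 and 0.686 from 200 to 300, and 0.673 and 0.792 at 300 or more. Regions with 1 site showed the same order, with a median of 0.673 where the site was in the DMSO list and 0.718 where it was not. Of these, 49.0% and 40.5% were lower by at least 1.5 times, a narrower gap than in multi-site regions.

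Coverage followed the same order. The AI-10-49 list covered 88.5% of the bases of regions with a DMSO-listed site and 93.3% of those without one. Under 50% of the bases were covered in 15 regions, 10 of the 151 (6.62%, 3.22 to 11.8) and 5 of the 436 (1.15%, 0.373 to 2.66). Regions with 1 site showed the same order, with 17.7% where the site was in the DMSO list and 9.55% where it was not. The multi-site regions with and without a DMSO-listed site also differed in RUNX1 height. The median at the highest site was 2.57 fragments/M against 1.24, and the part of RUNX1 height in the H3K27ac difference was not tested. Within the 149 regions with both values, the RUNX1 ratio of the highest listed site and the H3K27ac ratio had a Pearson r of 0.237 and a Spearman rho of 0.181. This is a weak relation across regions of the same libraries, given as a description.

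Only 2 multi-site regions had no H3K27ac region in AI-10-49. In chr9:124980782-124982313 (9q33.2) the H3K27ac summit of DMSO had 47 fragments (1.32 per M reads, 0.968 to 1.75). Both of its RUNX1 sites were in the DMSO list, with 0.533 and 1.48 fragments/M in DMSO and 0.730 and 1.71 in AI-10-49. In chr20:31214488-31216051 (20q11.21) the H3K27ac summit had 100 fragments (2.80 per M reads, 2.28 to 3.41), well above the lowest value of the AI-10-49 list, 0.324. RUNX1 there had 0.977 and 0.888 at the outer sites in DMSO and 1.396 and 1.27 in AI-10-49, and a middle site with 0.698 was listed in AI-10-49 only. RUNX1 was therefore called at these places in both conditions while H3K27ac was called in DMSO only.

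The next lowest coverage was in chr10:108579576-108580935 (10q25.1, 19.3%), chr15:80851733-80853777 (15q25.1, 22.3%) and chr1:235805109-235805861 (1q42.3, 32.1%). In the 15q25.1 region both RUNX1 sites were in the DMSO list, with 1.63 (1.23 to 2.12) and 1.04 fragments/M in DMSO and 1.90 and 2.86 in AI-10-49. Its H3K27ac summit had 1.82 (1.41 to 2.32) and 0.595 (0.373 to 0.901), a ratio of 0.327. In the 1q42.3 region both sites were also in the DMSO list, and in the 10q25.1 region neither was.

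The lowest H3K27ac ratios were 0.185 in chr16:85410538-85412760 (16q24.1), 0.238 in chr9:139422919-139425968 (9q34.3, the band of NOTCH1) and 0.287 in chr19:11379844-11380838 (19p13.2). In the 16q24.1 region, whose band holds the myeloid regulator gene IRF8, H3K27ac went from 3.50 (2.92 to 4.17) to 0.649 (0.416 to 0.965) fragments/M. One of its RUNX1 sites was in the DMSO list with 0.562 (0.339 to 0.878) and had 0.888 in AI-10-49, and the other, 588 bp away, had 0.635 in AI-10-49 only. The counting intervals of H3K27ac did not meet in any of these 3 regions, which largely follows from how they were named. Their RUNX1 sites had 1.75 fragments/M or less in AI-10-49.

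The highest ratios were 2.097 in chr11:61739598-61740921 (11q12.3, the band of the ferritin gene FTH1), 1.78 in chr5:40485111-40488663 (5p13.1) and 1.57 in chr10:4172913-4173879 (10p15.1). In the 11q12.3 region H3K27ac went from 2.27 (1.80 to 2.82) to 4.76 (4.08 to 5.52). The AI-10-49 region that covered it also covered neighbouring DMSO regions, as in 2 of these 3 cases and in 97 of 585 regions (16.6%). In the 5p13.1 region H3K27ac had 2.21 (1.75 to 2.76) and 3.95 (3.33 to 4.64). There 1 RUNX1 site had 0.562 (0.339 to 0.878) in DMSO and 2.86 after treatment, while the other, 436 bp from it, had 1.14 in AI-10-49 only.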

How the data were processed

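Peak lists of 4 libraries (RUNX1 and H3K27ac, DMSO and AI-10-49, 1 each) were analysed, with groups taken from sample titles. Per the submitters' processing notes, CASAVA 1.4, Bowtie2 2.1.0, SAMtools 1.3, Picard 1.96, MACS2 2.1.0 and hg19 were used. The input behind each call is not stated in these sources. Each deposited list holds, per peak, a fold enrichment ratio, −log10 p, −log10 q and a score (not used), as the authors' run made them. For each list, a scale factor was sought at which summit fragments were whole, and 100% of peaks were solved to within 0.003 of the deposited −log10 p. Read totals assume 2700000000 bp, the MACS2 human preset, and the shortest peak as fragment length. On simulated lists (2953, 2967, 1696 and 2998 peaks) 100% of fragment numbers were exact, and 0 of 2000 simulated intervals differed from bedtools 2.31.1.

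Overlap meant at least 1 bp. Of several overlapping peaks the one with most fragments was paired. Bands came from circlize 0.4.16, whose ends equal hg19 lengths on 24 of 24 chromosomes (GenomeInfoDb 1.38.1, R 4.3.3). Computation used Python 3.11.15, numpy 2.4.6, pandas 2.3.3, scipy 1.17.1 and matplotlib 3.10.9. Regions were chosen and named with earlier results of these data known. Those named had most sites, the highest summed site −log10 q with no or every site in DMSO, the lowest coverage, extreme H3K27ac ratios or spacing, or the greatest width. Genes, motifs and sequences were not analysed here, since the gene and promoter tables at hand are of GRCh38.p14 and no hg19 genome was used.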

Additional observations from a re-analysis of the deposited data

How the results depend on the processing

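Of 28 alternative values, 20 stayed close (inside the binomial interval of a share, taken over the 587 regions for covered bases, or within 1.5 times) and 8 moved. The cause was not tested except where the setting itself gives it. The number of regions (587) was 253 with RUNX1 −log10 q of at least 10 and 286 with a width limit of 3000 bp, as stricter limits leave fewer. The share of sites in the DMSO list (14.4%) was 22.8% within 1 kb, 6.77% with at least 50% of both intervals shared and 20.9% for sites with −log10 q of at least 10. Median spacing (781 bp) was 396 bp from edge to edge, which leaves out the peaks' own width. Covered bases (92.1%) were 89.4% when AI-10-49 H3K27ac peaks needed a −log10 q of 10 or more, and the median over regions was 94.9%. The median H3K27ac ratio (0.692) was 0.866 as a ratio of fold enrichments. This smaller decrease was still counted as close, because a limit of 1.5 times is wide for such a ratio. Being close therefore does not show that the decrease kept its size. The median RUNX1 ratio (2.14) was 1.89 after division by the ratio of fragment lengths. No paired analysis was possible because no group has replicates. The smaller of the ChIP and input libraries behind a list was shallower in AI-10-49 than in DMSO, by a factor of 0.816 for RUNX1 and 0.812 for H3K27ac, which limits weak calls.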

Other observations

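Regions of 5000 bp or more with at least 2 RUNX1 AI-10-49 sites numbered 283 and are outside the rule. Their 702 sites were higher in AI-10-49 (median 1.22 summit fragments per M reads) than the 1.08 in the 587 multi-site regions, and 12.5% (10.2 to 15.2) were in the DMSO list. At sites of both lists the median RUNX1 ratio was 2.65 (88 sites), against 2.14 (174 sites). The H3K27ac ratio, at 0.696, was close to the 0.692 of the narrower regions.

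Among bands with at least 50 DMSO H3K27ac regions under 5000 bp, multi-site regions were densest in 8p11.23 (7.84 per 100 regions, 4 regions), 18q12.1 (6.25, 4 regions) and 12q14.1 (5.0, 3 regions). The band 5q31.2 had 6 multi-site regions among 126 (4.76 per 100). The median over these 482 bands was 0.627, and 207 of them had 0. The 3 densest bands rest on 3 or 4 regions each.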
